A study of Mus musculus with 13 samples.

Results

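The stress regulators described here are 10 mouse genes of the integrated stress response, taken as the rows of the deposited gene table whose gene name was Atf4, Ddit3, Atf5, Cebpg, Trib3, Ppp1r15a, Chac1, Nupr1, Sesn2 or Eif4ebp1. Each name matched 1 row, so they are 10 of 23236 rows, and all 10 reached a mean of at least 1 FPKM, as 11792 rows did. FPKM counts sequenced fragments per kilobase of transcript, relative to the library's total, so levels can be compared between genes. The genes were selected on the same measured values, their FPKM in the libraries compared here, so the differences below are a description and support no test. The study is in C2C12 cells, a mouse myoblast line that fuses into myotubes when serum is lowered. The library labelled siLinc-Yy1 and the library labelled siNC are poly(A)-selected RNA-seq of C2C12 at the myoblast stage, with 1 library per condition. By the usual reading of such names they are an siRNA against the long noncoding RNA Linc-Yy1 and a control siRNA. The labels used here give neither the siRNA sequences nor the time after transfection. With no replicates, every difference below describes this pair of libraries.

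In the integrated stress response, kinases that sense amino acid shortage, unfolded proteins, double-stranded RNA or lack of haem phosphorylate the initiation factor eIF2. General translation then slows, while the mRNA of the transcription factor ATF4 is translated more, through short open reading frames ahead of its coding sequence. ATF4 binds DNA as a dimer with C/EBP proteins and activates genes of amino acid supply and of stress adaptation, among them Ddit3, which encodes the factor CHOP. ATF4 and CHOP together activate genes such as Trib3 and Chac1, and further products feed back on the pathway or slow cap-dependent translation. ATF4 is controlled to a large part at translation, and mRNA levels such as those given here do not measure that step.

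The DNA element that ATF4 and C/EBP dimers bind is the C/EBP-ATF response element, and its core was searched as TGATGNAA on both strands of the promoters. The cyclic AMP response element, bound by relatives such as CREB and ATF1, was searched as TGACGTCA, which reads the same on both strands. The motifs do not overlap each other in these promoters. Promoters were windows of 300 bases, from 250 before to 50 after the gene start, from RefSeq on GRCm38.p6. A window was at hand for 9 of the 10 genes, all but Eif4ebp1, and Atf5 had a pair of windows. The response element core was present in Trib3, Chac1 and Nupr1, the 3 members with the largest ratios between the libraries as deposited, and the cyclic AMP response element in Ppp1r15a. After subtraction of the trend with level, Sesn2, which has no match, stood above Nupr1. Since the members were selected on these same values, nothing is read from the pairing of motif and ratio. The core occurs in 3.97% of all 32851 RefSeq promoter windows and in 3.6% of the 21262 windows of protein-coding genes. The cyclic AMP response element occurs in 1.79% and 2.23% of them. In these 4 windows, shown because each holds a match, capitals mark the match (for the response element core, its reverse complement, since it lies on the opposite strand).
Trib3, chr2:152344011-152344310, minus strand: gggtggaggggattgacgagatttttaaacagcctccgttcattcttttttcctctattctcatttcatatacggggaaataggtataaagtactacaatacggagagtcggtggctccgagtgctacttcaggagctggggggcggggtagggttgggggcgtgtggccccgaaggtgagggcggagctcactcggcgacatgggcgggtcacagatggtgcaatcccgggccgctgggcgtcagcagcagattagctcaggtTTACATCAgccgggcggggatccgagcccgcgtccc
Chac1, chr2:119350992-119351291, plus strand: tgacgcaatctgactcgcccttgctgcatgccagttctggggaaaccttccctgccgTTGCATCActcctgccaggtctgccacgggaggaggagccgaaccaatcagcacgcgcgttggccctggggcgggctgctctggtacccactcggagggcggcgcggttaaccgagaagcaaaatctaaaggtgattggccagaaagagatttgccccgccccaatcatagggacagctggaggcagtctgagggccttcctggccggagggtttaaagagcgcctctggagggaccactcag
Nupr1, chr7:126625421-126625720, minus strand: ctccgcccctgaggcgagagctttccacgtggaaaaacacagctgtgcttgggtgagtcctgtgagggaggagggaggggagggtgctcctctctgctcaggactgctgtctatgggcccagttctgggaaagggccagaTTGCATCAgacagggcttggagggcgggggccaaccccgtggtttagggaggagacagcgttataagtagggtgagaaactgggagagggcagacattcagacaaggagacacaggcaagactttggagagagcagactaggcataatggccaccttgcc
Ppp1r15a, chr7:45526219-45526518, minus strand: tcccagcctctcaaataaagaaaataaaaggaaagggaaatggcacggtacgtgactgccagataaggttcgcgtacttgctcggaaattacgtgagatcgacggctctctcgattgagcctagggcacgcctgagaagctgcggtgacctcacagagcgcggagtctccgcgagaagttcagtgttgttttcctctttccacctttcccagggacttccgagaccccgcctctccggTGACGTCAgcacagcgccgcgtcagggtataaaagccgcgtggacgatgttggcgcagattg
The first base of the match lies 14 bases after the gene start in Trib3, 193 bases before it in Chac1, 110 bases before it in Nupr1 and 12 bases before it in Ppp1r15a. Chac1 and Nupr1 hold the same 8 letters, TTGCATCA, and Trib3 holds TTACATCA. No match was found in the windows of Atf4, Ddit3, Atf5, Cebpg and Sesn2, which says only that these letters are not in those windows.

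All 10 stress regulators measured higher in siLinc-Yy1 than in siNC, against 45.4% of all rows past the filter. Trib3 and Chac1 differed more than 4-fold, and the other 8 by 1.12-fold (Ppp1r15a) to 1.91-fold (Nupr1). On the log2 scale, with 1 FPKM added to each value, the median of the 10 was 0.81, beside -0.021 over all 11792 rows. Under this measure 2 of the 10 were at least 2-fold higher, beside 1.39% of all rows, and 7 were at least 1.5-fold higher, beside 3.28%. None was 2-fold or 1.5-fold lower, beside 0.178% and 0.517% of all rows. The authors' deposited table called 5 of them higher (Trib3, Chac1, Nupr1, Eif4ebp1 and Sesn2) and none lower, beside 1.29% and 0.327% of its tested rows. Since the members were proposed with these differences known, nothing is read from these shares.

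Among the transcription factors, Atf4, the factor at the head of the response (chr15:80085614-80087971, mm9), measured 249 FPKM in siLinc-Yy1 and 138 FPKM in siNC, a ratio of 1.80. It was the most abundant of the 10 in both libraries, and its difference of 111 FPKM was the largest in absolute terms. The authors' deposited table gives it a test statistic of 3.17 in size, with a q-value of 0.0787, and it was not called. Ddit3, which encodes CHOP (chr10:126727849-126748842, mm9), measured 83.4 FPKM in siLinc-Yy1 and 47.5 FPKM in siNC, a ratio of 1.76. This ratio is like that of Eif4ebp1, at 1.76, yet in the authors' deposited table the test statistic was 1.64 in size for Ddit3 and 4.21 for Eif4ebp1, with q-values of 0.75 and 0.00293. Ddit3 shares its locus in the table with Mars, a methionyl-tRNA synthetase, which measured 70.7 FPKM in siLinc-Yy1 and 55.2 FPKM in siNC. Rows that share a locus can share fragments, so their single values are uncertain. Why the test statistics of Ddit3 and Eif4ebp1 differ was not tested.

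Atf5, a relative of ATF4 whose mRNA is also under translational control (chr7:52067626-52104449, mm9), measured 77.9 FPKM in siLinc-Yy1 and 52.4 FPKM in siNC, a ratio of 1.49. It shares its locus with 4 other rows. Of these, Nup62, a nuclear pore protein, measured 49.2 FPKM in siLinc-Yy1 and 41.8 FPKM in siNC, and Tbc1d17 13.8 FPKM in siLinc-Yy1 and 12.4 FPKM in siNC. Nup62-il4i1, a readthrough row, measured 1.97 FPKM in siLinc-Yy1 and 1.78 FPKM in siNC, and Il4i1 was listed at 0 in both libraries. In the authors' deposited table the q-value of Atf5 was 0.72. Cebpg, a C/EBP protein without the usual activation domain that dimerises with ATF4 (chr7:35831441-35841585, mm9), measured 8.66 FPKM in siLinc-Yy1 and 7.09 FPKM in siNC, a ratio of 1.22. It was the least abundant of the 10 in siLinc-Yy1, and the authors' deposited table gives it a q-value of 0.778.

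The members that act back on the pathway differed widely. Trib3, a pseudokinase that is induced by ATF4 and CHOP and restrains them (chr2:152163161-152169796, mm9), measured 28.4 FPKM in siLinc-Yy1 and 6.29 FPKM in siNC, a ratio of 4.51. It was the least abundant of the 10 in siNC and the seventh most abundant in siLinc-Yy1. Ppp1r15a, also named GADD34, brings protein phosphatase 1 to eIF2 and so ends the response (chr7:52778288-52781638, mm9). It measured 23.1 FPKM in siLinc-Yy1 and 20.7 FPKM in siNC, a ratio of 1.12, the smallest of the 10, with a q-value of 0.997 in the authors' deposited table. These members, both known as targets of the pathway, thus stood at the top and the bottom of the set in their ratios.

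Chac1, an enzyme that degrades glutathione (chr2:119176978-119180062, mm9), measured 70.2 FPKM in siLinc-Yy1 and 16.3 FPKM in siNC, a ratio of 4.31. In the authors' deposited table the q-value was listed at 0 for both Chac1 and Trib3, with test statistics of 11.2 in size for each. Nupr1, a small stress-induced nuclear protein (chr7:133766760-133768984, mm9), measured 149 FPKM in siLinc-Yy1 and 78.2 FPKM in siNC, a ratio of 1.91. Its q-value in the authors' deposited table was 4.98e-05.

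Of the members that slow growth signalling and translation, Sesn2, a leucine-sensing inhibitor of the kinase complex mTORC1 (chr4:132048722-132066371, mm9), measured 20.9 FPKM in siLinc-Yy1 and 12.8 FPKM in siNC, a ratio of 1.63. Its q-value in the authors' deposited table was 0.00849. Sesn2 is known as a target of p53 as well as of ATF4. Eif4ebp1, which binds the cap-binding protein eIF4E and blocks initiation unless mTORC1 phosphorylates it (chr8:28370799-28386128, mm9), measured 185 FPKM in siLinc-Yy1 and 105 FPKM in siNC. It was the second most abundant of the 10 in both libraries.

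**Figure D1:**
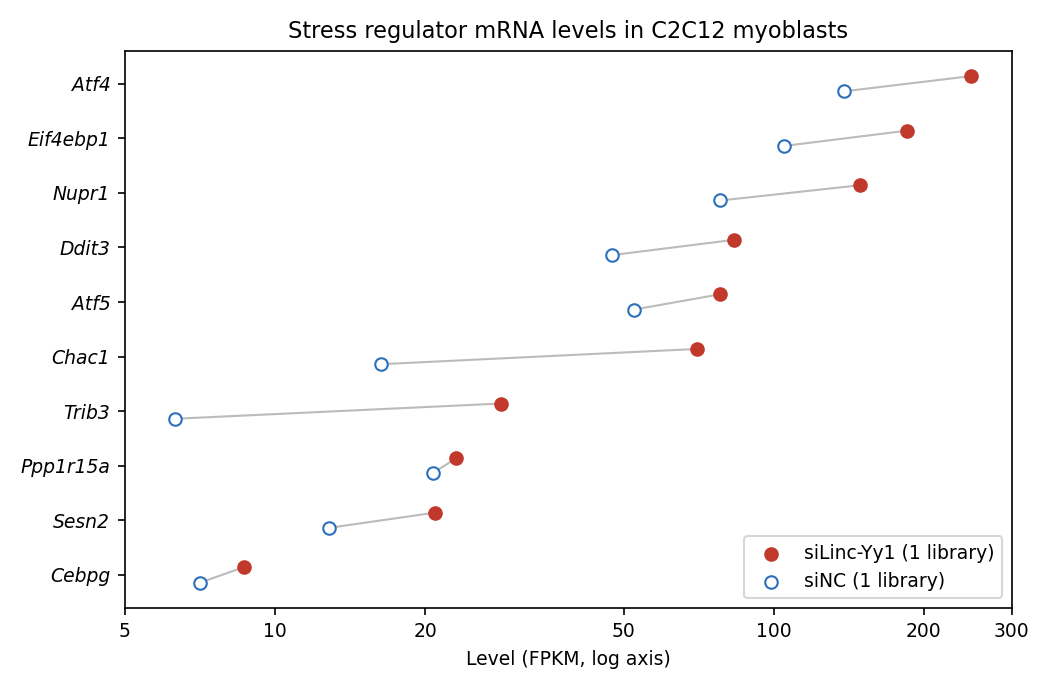
Levels of the 10 stress regulators in FPKM on a log axis, ordered by their level in siLinc-Yy1, with 1 library per condition (filled points siLinc-Yy1, open points siNC, joined per gene). Every filled point lies to the right of its open point; the widest gaps are those of Trib3 (28.4 FPKM in siLinc-Yy1 against 6.29 FPKM in siNC) and Chac1 (70.2 FPKM in siLinc-Yy1 against 16.3 FPKM in siNC), the narrowest that of Ppp1r15a (23.1 FPKM in siLinc-Yy1 against 20.7 FPKM in siNC).

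By level, the order in siLinc-Yy1 was Atf4, Eif4ebp1, Nupr1, Ddit3, Atf5, Chac1, Trib3, Ppp1r15a, Sesn2 and Cebpg. In siNC it was Atf4, Eif4ebp1, Nupr1, Atf5, Ddit3, Ppp1r15a, Chac1, Sesn2, Cebpg and Trib3. The top 3 places were thus the same in both libraries. Neighbours such as Ddit3 and Atf5, or Ppp1r15a and Sesn2 in siLinc-Yy1, lie close, and without replicates it cannot be said whether they differ.

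Abundant transcripts as a whole measured higher in siLinc-Yy1, and the stress regulators span the levels over which this trend sets in. The running median of the log2 fold change over neighbouring rows ordered by mean FPKM was -0.092 at the level of Cebpg and 0.37 at that of Atf4. Less this running median, all 10 members were still above 0, as 5889 of 11792 rows were, with a median of 0.58. Trib3 stood at 2.06 and Chac1 at 1.98. Sesn2 (0.71), Nupr1 (0.67) and Ddit3 (0.65) followed, then Eif4ebp1 (0.52), Atf4 (0.48), Atf5 (0.42), Cebpg (0.35) and Ppp1r15a (0.16). Members at least 1.5-fold higher on this measure numbered 5, beside 2.14% of all rows. Atf4 was the fourth of the 10 before this subtraction and the seventh after it.

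**Figure D2:**
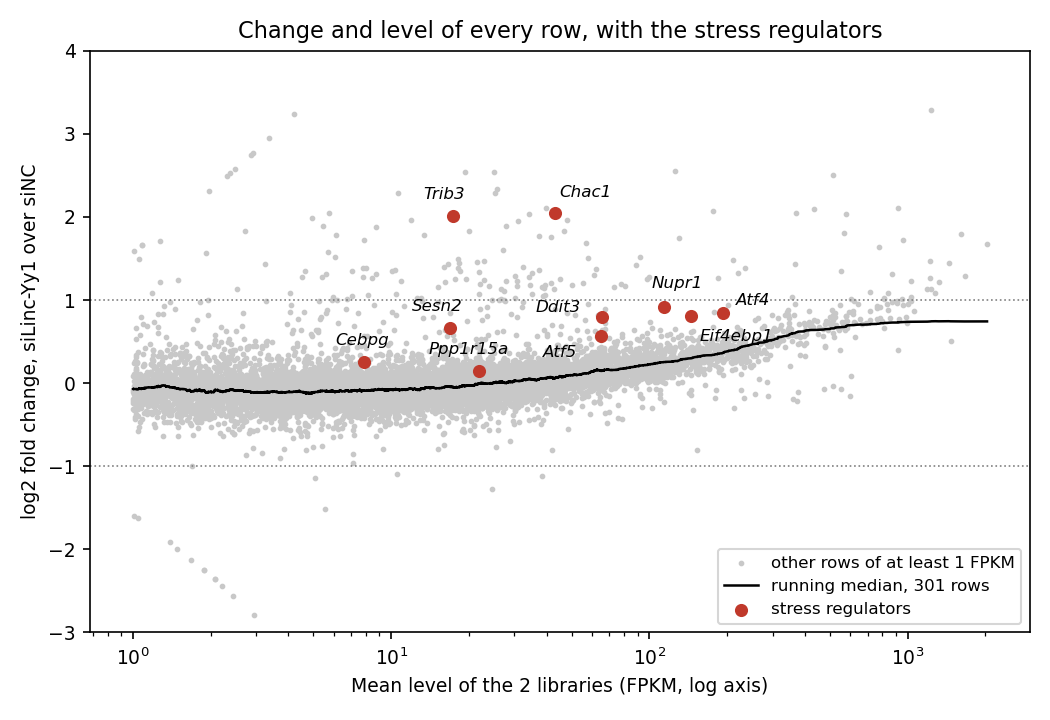
Difference between siLinc-Yy1 and siNC as log2 fold change (1 FPKM added), against the mean level of the 2 libraries in FPKM on a log axis, for the 11792 rows of at least 1 FPKM (grey), the running median (black line) and the 10 stress regulators (red). The line climbs at high levels, the members all lie above it, and dotted lines mark 2-fold; 6 rows lie beyond the vertical axis.

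When both libraries were instead brought to the same total FPKM, the median of all rows moved from -0.021 to -0.31, and that of the stress regulators to 0.49. On that scale 8 of the 10 stayed above 0, while Cebpg stood at -0.03 and Ppp1r15a at -0.16, both still above the median of all rows. Trib3 stood at 1.72, Chac1 at 1.73 and Nupr1 at 0.60. The direction given for Cebpg and Ppp1r15a thus depends on the scaling, and that of the other 8 was the same under each scaling run.

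**Figure D3:**
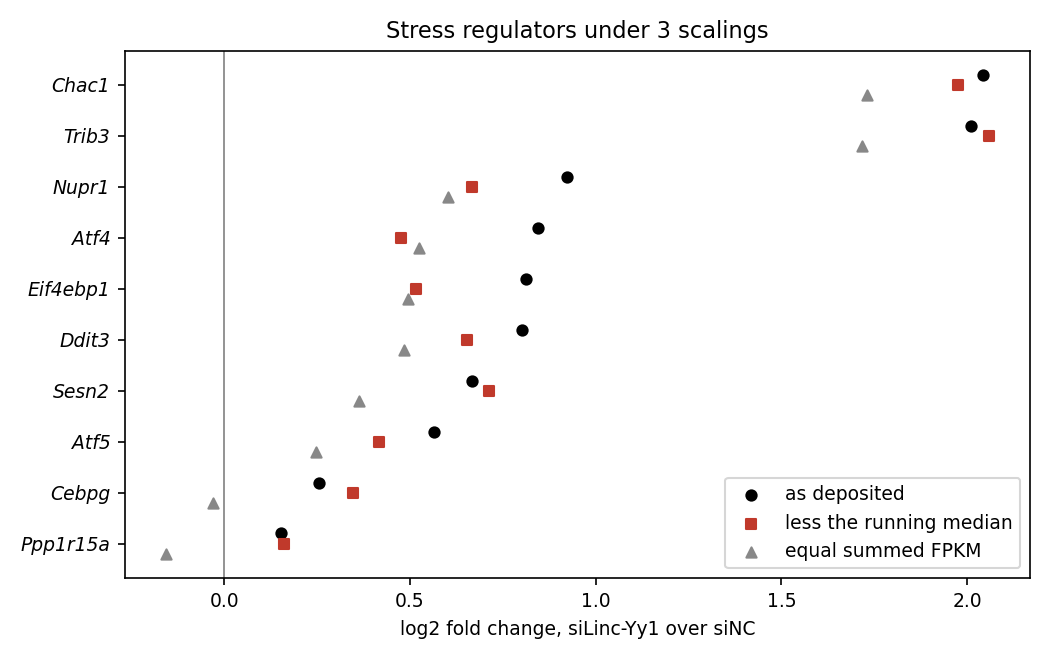
Difference of each stress regulator between siLinc-Yy1 and siNC (log2 fold change) under the deposited scaling (circles), less the running median (squares) and after rescaling to equal summed FPKM (triangles). Trib3 and Chac1 stand apart under each, and Cebpg and Ppp1r15a are below 0 after rescaling (-0.03 and -0.16).

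Chac1 and Trib3 ranked 25th and 28th from the top among the 11792 rows by log2 fold change. Among the 8783 protein-coding rows with status OK and a mean of at least 5 FPKM they ranked 3rd and 5th. Atf4 ranked 100th there, Ddit3 117th, Nupr1 83rd, Eif4ebp1 112th, Sesn2 176th, Atf5 242nd, Cebpg 945th and Ppp1r15a 1767th. The rows nearest to Chac1 in log2 fold change (2.04) were Snord104, a small nucleolar RNA, Mir297-1, a microRNA, and Lars2, a mitochondrial leucyl-tRNA synthetase, with distances of at most 0.01. Nearest to Trib3 (2.01) were Tmem38b, a potassium channel of the endoplasmic reticulum, Snord104 and Mir297-1. Tmem38b measured 55.6 FPKM in siLinc-Yy1 and 12.9 FPKM in siNC, and Lars2 597 FPKM in siLinc-Yy1 and 143 FPKM in siNC. This likeness rests on 2 libraries.

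Most close relatives of the stress regulators lay close in both libraries. Of 13 relatives listed, 12 had a row and 11 passed the filter. None of the 11 was 1.5-fold higher or lower, beside 3.28% and 0.517% of all rows, and their median was -0.042. Less the running median it was 0.054, so its sign depends on the scaling. Trib1 and Trib2, the other Tribbles pseudokinases, measured 7.56 and 3.01 FPKM in siLinc-Yy1, against 8.39 and 3.50 FPKM in siNC. Chac2, the constitutive relative of Chac1, measured 2.85 FPKM in siLinc-Yy1 and 2.79 FPKM in siNC. The other sestrins, Sesn1 and Sesn3, measured 10.1 and 6.92 FPKM in siLinc-Yy1, against 12.3 and 7.15 FPKM in siNC. In these 3 families the stress regulator was higher and each relative lay within 1.5-fold.

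Eif4ebp2 and Eif4ebp3, the other eIF4E-binding proteins, measured 40.0 and 8.52 FPKM in siLinc-Yy1, against 41.4 and 9.63 FPKM in siNC. Ppp1r15b, the constitutive partner of protein phosphatase 1 on eIF2, measured 17.9 FPKM in siLinc-Yy1 and 16.7 FPKM in siNC, and here the member itself was hardly higher. In the C/EBP family, relatives differed more than the member. Cebpb measured 58.5 FPKM in siLinc-Yy1 and 39.9 FPKM in siNC, a ratio of 1.47, and Cebpd 7.62 FPKM in siLinc-Yy1 and 5.44 FPKM in siNC, a ratio of 1.40. Both ratios were above the 1.22 of Cebpg. Cebpa measured 4.90 FPKM in siLinc-Yy1 and 5.04 FPKM in siNC. In the authors' deposited table Cebpb had a q-value of 0.0965 and none of the relatives was called.

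**Figure D4:**
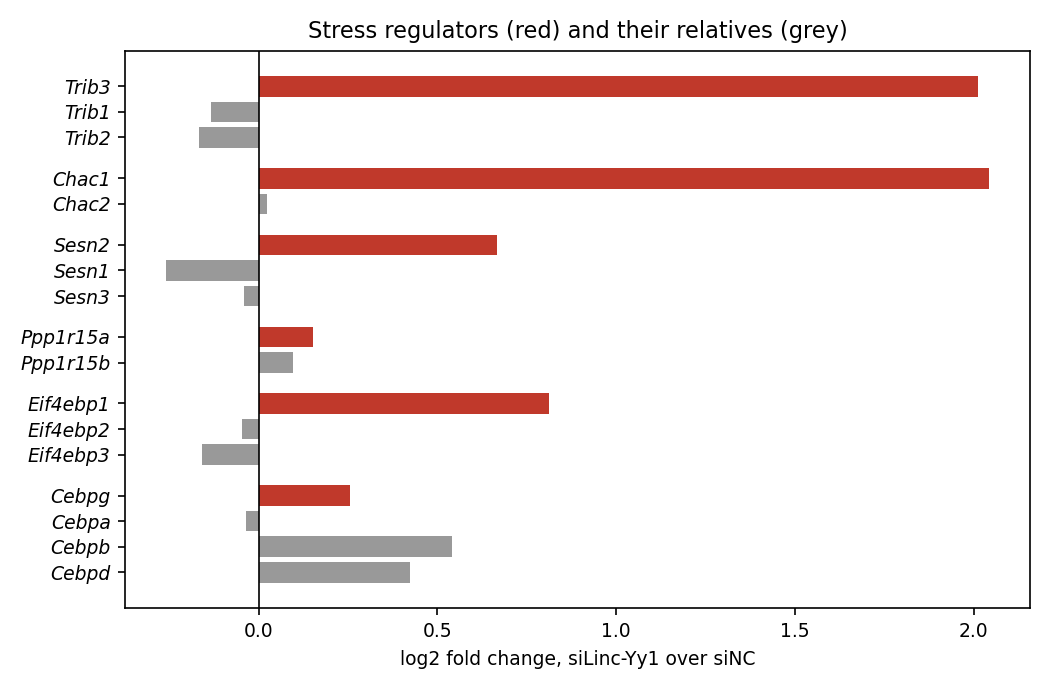
Difference between siLinc-Yy1 and siNC (log2 fold change, 1 FPKM added) for 6 stress regulators (red) and their relatives of at least 1 FPKM (grey), 1 library per condition. Trib3 (2.01), Chac1 (2.04), Sesn2 (0.67) and Eif4ebp1 (0.81) stand above relatives near or below 0, while Cebpb (0.54) and Cebpd (0.42) stand above Cebpg (0.26).

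Upstream of the members stand the genes of the eIF2 step. Of 6 eIF2 kinases and their regulators none was 1.5-fold higher or lower, beside 3.28% and 0.517% of all rows, and the median was -0.11. After rescaling the median was -0.42, beside -0.31 over all rows, and Eif2ak3 was 1.5-fold lower (-0.66). Eif2ak3, the kinase PERK that senses unfolded proteins, measured 6.93 FPKM in siLinc-Yy1 and 9.25 FPKM in siNC. Eif2ak2, the kinase PKR that senses double-stranded RNA and is itself an interferon-induced gene, measured 27.9 FPKM in siLinc-Yy1 and 32.1 FPKM in siNC. Eif2ak1, the haem-regulated kinase, measured 15.8 FPKM in siLinc-Yy1 and 17.8 FPKM in siNC. mRNA levels of these kinases do not measure their activity.

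Of 12 subunits of eIF2, eIF2B and their phosphatases, 1 was 1.5-fold higher, Eif2s2, with 126 FPKM in siLinc-Yy1 and 79.2 FPKM in siNC. This is 1 of 12, beside 3.28% of all rows. The median of the 12 was 0.066, and below 0 less the running median (-0.028) and after rescaling (-0.24). A list of 9 held genes of the IRE1 and ATF6 branches of the unfolded protein response, with Creb3, Creb3l1 and Creb3l2. None of the 9 differed 1.5-fold, beside 3.28% of all rows higher and 0.517% lower. Their median was 0.027, and -0.28 after rescaling. Xbp1, the factor of the IRE1 branch, which was named after its value was seen, measured 51.1 FPKM in siLinc-Yy1 and 52.8 FPKM in siNC. Creb3l1, with the largest difference of the 9, measured 115 FPKM in siLinc-Yy1 and 84.5 FPKM in siNC. Here too mRNA levels do not measure the activity of the branches.

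Of 12 other basic leucine zipper factors, 10 passed the filter, with a median of 0.33, or 0.21 less the running median. None was 1.5-fold higher, beside 3.28% of all rows. Besides Cebpb, Nfe2l1 measured 93.2 FPKM in siLinc-Yy1 and 63.2 FPKM in siNC, and Atf3, another factor of the stress response, 7.86 FPKM in siLinc-Yy1 and 5.61 FPKM in siNC. The authors' deposited table called none of these lists' members, beside 1.29% of its tested rows called higher.

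Downstream, genes of amino acid supply were higher as well. All 13 enzymes of amino acid synthesis and of mitochondrial folate metabolism were higher, beside 45.4% of all rows (Mthfd1l not after rescaling, at -0.14). Their median was 0.73, and 8 were at least 1.5-fold higher, beside 3.28% of all rows. The authors' deposited table called 7 of them higher, beside 1.29% of its tested rows. Aldh1l2, a mitochondrial folate enzyme, measured 14.5 FPKM in siLinc-Yy1 and 6.40 FPKM in siNC, and Gpt2, an alanine aminotransferase, 36.1 FPKM in siLinc-Yy1 and 17.4 FPKM in siNC. Asns, asparagine synthetase, measured 76.8 FPKM in siLinc-Yy1 and 39.1 FPKM in siNC. After rescaling the median was 0.41 and 4 were at least 1.5-fold higher. Less the running median, the list stood at 0.60 and 7 were at least 1.5-fold higher, beside 2.14% of all rows. On this measure the list differed about as much as the members did, with medians of 0.60 and 0.58. Shmt2 has status FAIL in the authors' deposited table, which gives it no test.

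Of 11 amino acid transporters, 10 passed the filter, with a median of 0.46, and 3 were at least 1.5-fold higher, beside 3.28% of all rows. After rescaling the median was 0.14 and 1 was 1.5-fold higher. Slc6a9, a glycine transporter, measured 17.2 FPKM in siLinc-Yy1 and 7.94 FPKM in siNC. Slc7a5 and Slc3a2, the light and heavy chain of a large neutral amino acid transporter, measured 87.8 and 78.5 FPKM in siLinc-Yy1, against 46.7 and 51.3 FPKM in siNC. The authors' deposited table called Slc6a9 and Slc7a5 higher, beside 1.29% of its tested rows. Slc7a11, a cystine transporter that is a common ATF4 target and was named after its value was seen, measured 10.6 FPKM in siLinc-Yy1 and 11.7 FPKM in siNC.

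Among the aminoacyl-tRNA synthetases, all 13 of those often listed as ATF4 targets were higher, beside 45.4% of all rows. They were also higher less the running median, with medians of 0.42 as deposited and 0.22 on that measure. Eprs, Lars, Vars and Wars were below 0 after rescaling. Cars, Sars and Nars were at least 1.5-fold higher, beside 3.28% of all rows. None of the 13 was 1.5-fold higher less the running median or after rescaling. Sars measured 106 FPKM in siLinc-Yy1 and 68.1 FPKM in siNC, and Cars 69.8 FPKM in siLinc-Yy1 and 44.9 FPKM in siNC. The other 7 cytosolic synthetases had a median of 0.052, and -0.27 after rescaling, against 0.10 for the first list. Less the running median all 7 were below 0, as 49.7% of all rows were, with a median of -0.078. Kars, the highest of them, measured 159 FPKM in siLinc-Yy1 and 132 FPKM in siNC. Less the running median, the first list ranged from 0.09 to 0.51 and the second from -0.092 to -0.029. The ranges overlapped as deposited and after rescaling, where Kars (0.26 and -0.055) stood above Lars (0.22 and -0.095) and Eprs (0.25 and -0.067). Since the lists were chosen with results of these data known, nothing is read from the gap between them. These are differences of 2 libraries, and no synthetase on either list carried a call by the authors. Calls for synthetases outside these lists, such as the mitochondrial Lars2, are not given here.

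The response element core was found in 5 of 8 listed synthetase genes with a promoter window (Aars, Gars, Iars, Tars and Yars) and in none of 5 of the other synthetases. Among the amino acid enzymes it was found in 3 of 11 (Asns, Pycr1 and Got1), and among the members in 3 of 9. These are counts of genes with a match in any of their windows, beside 3.6% of single windows of protein-coding genes. Genes can be listed as ATF4 targets because they hold this element, so nothing is read from these counts. It was also found in 2 of 7 transporter genes, of which Slc7a11 was not higher (Slc1a4 is the other), in 2 of 10 other leucine zipper factors, in 1 of 9 genes of the eIF2 list (Eif2s3x) and in 3 of 8 other stress-induced genes. It was found in none of the windows of the other 8 lists, among them 15 endoplasmic reticulum chaperone genes, 15 mTORC1 and eIF4F genes, 11 autophagy genes, 8 relatives of members and 4 genes of cell death.

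Other genes often listed as stress-induced were higher too. Of 9 listed, 8 passed the filter, all above 0, beside 45.4% of all rows. Their median was 0.62, and 5 were at least 1.5-fold higher, beside 3.28% of all rows. After rescaling these were 0.30 and 2. Beside 1.29% of its tested rows, the authors' deposited table called 4, Adm2, Fgf21, Gdf15 and Herpud1. Adm2, a peptide hormone, measured 2.51 FPKM in siLinc-Yy1 and 0.482 FPKM in siNC, and Fgf21, a metabolic hormone, 1.63 FPKM in siLinc-Yy1 and 0.513 FPKM in siNC. At such levels the added 1 FPKM lowers the log2 values, to 1.24 for Adm2 and 0.80 for Fgf21. Herpud1, which serves degradation of proteins at the endoplasmic reticulum, measured 66.3 FPKM in siLinc-Yy1 and 37.1 FPKM in siNC.

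Lists of the arms that CHOP and protein folding stress are known for had lower medians than the stress regulators. Of 6 genes of oxidation and cell death, 1 was at least 1.5-fold higher, beside 3.28% of all rows. This was Gadd45a, with 39.1 FPKM in siLinc-Yy1 and 22.1 FPKM in siNC, and the authors' deposited table called it higher with a q-value of 0.00134. Gadd45a is known as a target of p53 as well. Bbc3, a protein of the BCL2 family that promotes cell death, measured 8.61 FPKM in siLinc-Yy1 and 6.83 FPKM in siNC. Tnfrsf10b, a death receptor, measured 28.1 FPKM in siLinc-Yy1 and 26.1 FPKM in siNC. The median of the 6 was 0.098, and -0.21 after rescaling, beside -0.021 and -0.31 over all rows. Less the running median it was 0.12, and all 6 were above 0, as 5889 of 11792 rows were.

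Of 17 endoplasmic reticulum chaperones and folding enzymes 1 was 1.5-fold higher, near the 3.28% of all rows. It was Calr, an abundant chaperone with 614 FPKM in siLinc-Yy1 and 372 FPKM in siNC. Calr stood at 0.07 less the running median. The median of the 17 was 0.079, and it was -0.054 less the running median and -0.24 after rescaling, when Dnajb9 (-0.59) was 1.5-fold lower. Manf, a secreted folding stress protein, measured 80.2 FPKM in siLinc-Yy1 and 60.8 FPKM in siNC. Among 5 mitochondrial chaperones and proteases none was 1.5-fold higher, beside 3.28% of all rows. Their median was 0.23, or 0.044 less the running median and -0.089 after rescaling.

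Autophagy and growth signalling lists lay near the median of all rows. Of 14 autophagy genes 1 was 1.5-fold higher, Sqstm1, a cargo receptor, with 269 FPKM in siLinc-Yy1 and 178 FPKM in siNC. Sqstm1 stood at 0.16 less the running median. The median of the 14 was -0.058. Of 16 genes of mTORC1 and the eIF4F complex 1 was 1.5-fold higher, Eif4a1, an RNA helicase, with 526 FPKM in siLinc-Yy1 and 320 FPKM in siNC, or 0.07 less the running median. Both counts are near the 3.28% of all rows. Eif4e, the partner of Eif4ebp1, measured 52.4 FPKM in siLinc-Yy1 and 43.8 FPKM in siNC. The median of the 16 was 0.032, and -0.28 after rescaling.

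**Figure D5:**
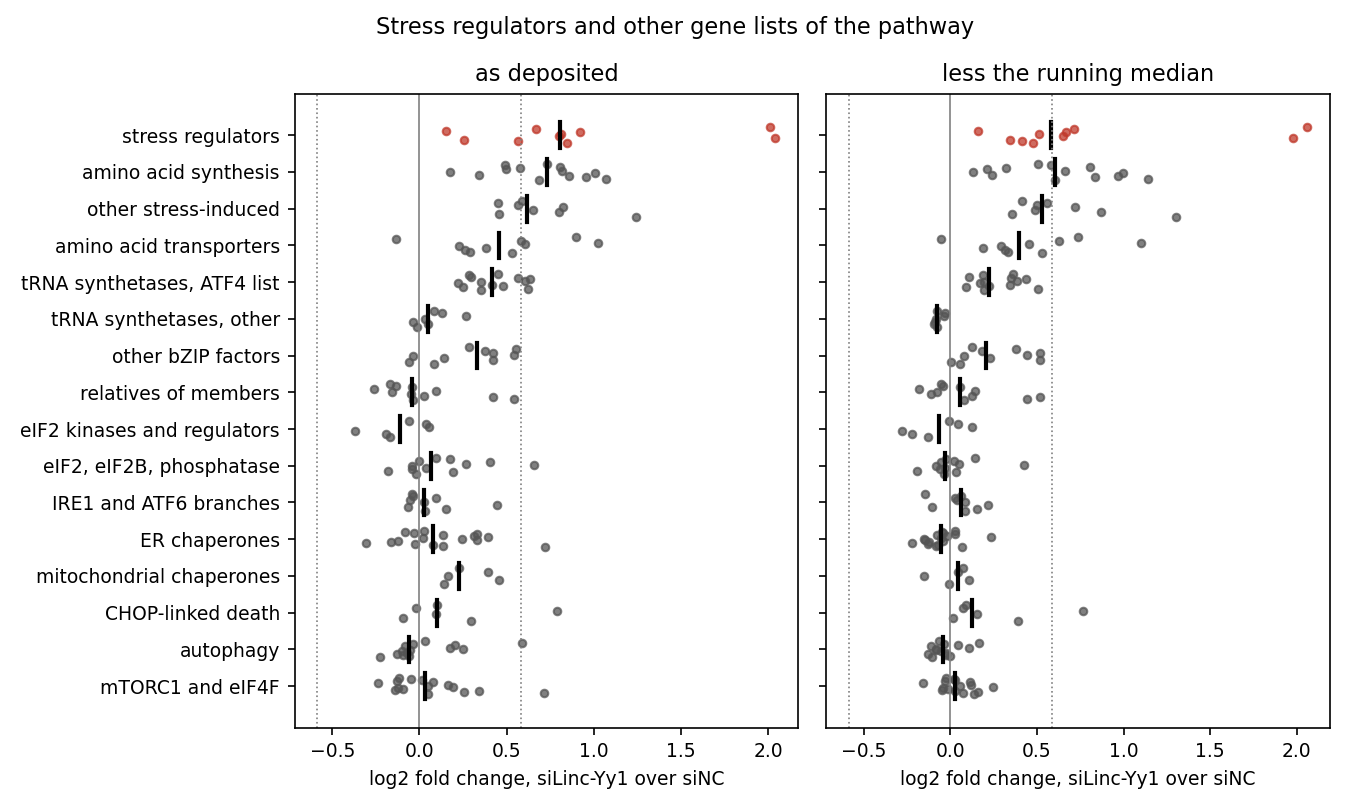
Difference between siLinc-Yy1 and siNC (log2 fold change) for the stress regulators (red) and 15 other gene lists, as deposited on the left and less the running median on the right; each point is a gene of at least 1 FPKM, black bars are list medians and dotted lines mark 1.5-fold. The stress regulators, amino acid synthesis and other stress-induced genes have medians of 0.58, 0.60 and 0.53 on the right. There the medians of the endoplasmic reticulum chaperone, autophagy and mTORC1 lists lie between -0.054 and 0.027, and that of the mitochondrial chaperones is 0.044.

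The target of the siRNA was scarce. Its row, lincYy1, measured 0.227 FPKM in siLinc-Yy1 and 0.360 FPKM in siNC, with a q-value of 0.878 in the authors' deposited table, so the label of the siLinc-Yy1 library could not be checked on it. All 6 myoblast markers were present in both libraries, from 21.9 to 1366 FPKM in siLinc-Yy1 and from 18.8 to 749 FPKM in siNC, and all 6 markers of differentiated muscle were above 1 FPKM. The myoblast markers summed to 2181 FPKM in siLinc-Yy1 and 1368 FPKM in siNC. Of these, Vim measured 1366 FPKM in siLinc-Yy1 and 749 FPKM in siNC, Des 487 and 322, and Itga7 139 and 117. Myod1 (67.0 FPKM in siLinc-Yy1 and 62.5 FPKM in siNC), Myf5 (21.9 and 18.8) and Cdh15 (99.0 and 98.4) lay closer. Those of differentiated muscle summed to 151 FPKM in siLinc-Yy1 and 125 FPKM in siNC. Of the latter only Myog was lower in siLinc-Yy1, with 19.4 FPKM against 22.8 FPKM in siNC. All endothelial and epithelial markers were below 1 FPKM in both libraries, as were Ptprc, Cd3e, Adipoq, Plin1, Rbfox3 and Sox10. The exceptions among markers of other cell types were Cd68 (4.43 FPKM in siLinc-Yy1 and 4.48 FPKM in siNC), Fabp4 (1.63 FPKM in siLinc-Yy1 and 1.71 FPKM in siNC) and Tubb3 (152 FPKM in siLinc-Yy1 and 117 FPKM in siNC). In bulk RNA, more cells in a stressed state and more RNA per cell cannot be told apart.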

How the data were processed

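Of 13 samples in the series, 4 RNA-seq and 9 ChIP-seq by the labels, the RNA-seq libraries siLinc-Yy1 and siNC were used; the others were not analysed here. They came in 1 gene-level table, deposited as 2 identical copies. Per the file headers, the authors deposited FPKM per gene and condition and the p-value and q-value of their test of this pair of libraries. The deposited log2 fold change and test statistic were used as the authors' values. Tools named in the submitters' processing notes are Cuffdiff 2.0.4, Cufflinks 2.1.1 and TopHat2 2.0.4, with the build mm9. The sources used here do not give the scaling between libraries, the annotation or the use of strand.

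With 1 FPKM added to each value, the change was the log2 ratio of siLinc-Yy1 to siNC, which makes changes of low genes too small. It was taken in the 11792 rows with a mean of at least 1 FPKM. With 1 library per condition no test was run, and no p-value, SD or SE was computed; genes are not replicates. Shares called in the authors' deposited table are of its 14366 rows with status OK. The running median was taken over 301 rows. Depth in fragments is unknown: FPKM of short single-exon receptor rows moved in steps that 51.2% of 527 rows in siLinc-Yy1 and 62.5% of 627 in siNC matched within 0.02 steps, and a step was worth 1.40 times as much FPKM in siLinc-Yy1 as in siNC. Whether a step equals a whole fragment was not shown, and transcript lengths were not at hand. No counts and no counting interval were therefore derived, and no count test was run.

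The members and lists were chosen with earlier results of these data known. Named were the members, all measured relatives, and the 3 rows nearest to Chac1 and to Trib3. Up to 3 genes per list with the largest absolute change were named too, as were the target, rows at a shared locus and cell type markers. Xbp1 and Slc7a11 are marked as named after their values were seen. This holds without a mark for Dnajb9, Mthfd1l, Shmt2 and the synthetase, hormone and promoter names that belong to a count. Calculations used Python 3.11.15 and pandas 2.3.3, and the size rule and running median were tested on simulated data. Alternatives were other pseudocounts, filters, scalings, thresholds and the authors' calls.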

Additional observations from a re-analysis of the deposited data

How the results depend on the processing

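The 10 members kept their count of 2 at least 2-fold higher and 0 at least 2-fold lower with no filter or one at a mean of 5 FPKM, with pseudocounts of 0.1 and 5 FPKM, under each of 3 other scalings and in rows of status OK. At a threshold of 1.5-fold the count higher was 7, and by the call in the authors' deposited table it was 5. Over all genes, 164 were at least 2-fold higher and 21 lower. With a pseudocount of 5 FPKM these were 109 and 7, after rescaling to equal summed FPKM 95 and 39, and at 1.5-fold 387 and 61. The count lower was 39 with no filter, 7 at a mean of at least 5 FPKM and 47 by the authors' calls. For single log2 values and medians, an alternative counted as a shift when it moved the value by more than 1.5-fold, which none of those run did. Changes of sign without such a shift are given beside the values for Cebpg, Ppp1r15a and the lists concerned. The cause of these changes was not tested. No paired analysis was possible because each condition has 1 library, and for the same reason no library could be left out. Depth limits the low rows, such as Adm2, Fgf21 and lincYy1, most.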
